A study of Mus musculus with 12 samples.

Results

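The blood endothelial identity genes *Pecam1*, *Cdh5*, *Esam*, *Emcn*, *Eng*, *Vwf*, *Erg*, *Ets1*, *Sox17* and *Sox18* were described in the scars of mice with and without traction force. These 10 genes were selected by symbol, for what their products are known to do, from the 35976 genes in the count files. Earlier results of these data were known at that time. All 10 were found and passed the filter on low counts, as did 18853 genes in all. *Pecam1* and *Ets1* were also named by the study from these same libraries as genes with higher expression in WT mice with traction, so their direction in that group is not independent evidence. From these libraries the study also reported a higher endothelial cell enrichment score with traction in WT mice, and a lower one with traction when *Tem1* was absent. The directions of the other genes are thus not independent of that report.

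Blood vessels are lined by endothelial cells, which are held together by adhesion proteins at their junctions and face the blood with a coat of glycoproteins. The identity of these cells is maintained by ETS and SOX transcription factors, many of which act together on the same vascular genes. In healing skin, new vessels sprout from existing ones and are later pruned as the scar matures.

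Scars were taken from male C57BL/6J mice of 8 to 12 weeks, with 3 mice in each of 4 groups. *Tem1*WT/WT mice (WT) formed the groups WTSH without and WTTR with traction, and *Tem1*lacZ/lacZ mice (lacZ), in which lacZ replaces the single exon of *Tem1* in every tissue rather than in a chosen cell type, formed the groups lacZSH and lacZTR likewise. A plastic device was placed on the wound at day 6 in every group, and was elongated by 1 mm/day to 8 mm in the traction groups only. RNA of whole scar tissue was sequenced, with 41536788 to 64644293 counts per library. *Tem1*, listed as *Cd248*, followed the labels, at 119 to 193 CPM in WTSH and 92.4 to 337 CPM in WTTR, against at most 0.190 CPM in lacZSH and 0.248 CPM in lacZTR. CPM are TMM-normalized counts scaled to a common library size, and the 10 genes had 170 to 16309 counts per library. Markers of keratinocytes and fibroblasts were present in all 12 libraries.

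All 10 genes are protein-coding in the GENCODE vM21 annotation of GRCm38. On the minus strand lie *Pecam1* (Entrez 18613, chr11:106654217-106750628), *Erg* (13876, chr16:95359169-95586593), *Sox17* (20671, chr1:4490931-4497354) and *Sox18* (20672, chr2:181669836-181671640). On the plus strand lie *Cdh5* (12562, chr8:104101625-104144511), *Vwf* (22371, chr6:125546774-125686679), *Ets1* (23871, chr9:32636221-32757820), *Emcn* (59308, chr3:137341067-137432185), *Esam* (69524, chr9:37528078-37538319) and *Eng* (13805, chr2:32646595-32682669). Exons of an opposite-strand gene cover 16.9% of the exon bases of *Sox17* (Gm37587) and 1.51% of those of *Eng* (*Fpgs*), and the strand setting of the counting is not given in the sources used here.

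Promoters were examined because the 10 genes moved together across libraries. The RefSeq promoter table (GRCm38.p6) held 3 of the 10 genes, *Eng*, *Emcn* and *Erg*. Its starts are those used below, and the GENCODE start of *Emcn*, 137341067, lies within the window shown. The 250 bases before the start are shown for *Eng* (chr2:32646345-32646594, plus strand), *Emcn* (chr3:137340828-137341077, plus strand) and the most upstream of the 3 starts of *Erg* (chr16:95586594-95586843, minus strand). Capitals mark GGAA or its reverse complement TTCC, the core that ETS factors such as ERG and ETS1 bind, and ACAAT or ATTGT, part of the core that SOX factors bind.
Eng: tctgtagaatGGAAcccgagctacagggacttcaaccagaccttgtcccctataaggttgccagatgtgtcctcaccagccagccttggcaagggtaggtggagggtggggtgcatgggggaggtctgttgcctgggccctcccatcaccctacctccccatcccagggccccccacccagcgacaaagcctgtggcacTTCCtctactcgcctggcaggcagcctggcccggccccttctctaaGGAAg
Emcn: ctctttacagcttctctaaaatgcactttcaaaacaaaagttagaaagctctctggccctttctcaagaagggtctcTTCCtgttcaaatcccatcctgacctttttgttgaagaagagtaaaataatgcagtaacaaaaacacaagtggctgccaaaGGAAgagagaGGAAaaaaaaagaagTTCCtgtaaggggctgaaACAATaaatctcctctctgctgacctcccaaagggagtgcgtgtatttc
Erg: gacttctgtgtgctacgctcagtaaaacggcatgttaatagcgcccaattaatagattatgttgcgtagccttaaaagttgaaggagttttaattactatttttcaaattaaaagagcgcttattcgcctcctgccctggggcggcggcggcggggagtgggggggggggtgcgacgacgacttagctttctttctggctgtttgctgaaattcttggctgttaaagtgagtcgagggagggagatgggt
In the windows shown, the ETS core was found 3 times before *Eng* and 4 times before *Emcn*, and the SOX letters once, before *Emcn*. The window shown for *Erg* held neither. Those before its starts further downstream held the ETS core 4 and 2 times, and the SOX letters 0 and 1 times. Of 32851 promoters of this length, 93.4% held the ETS core and 27.7% the SOX letters, and the median promoter held the ETS core 3 times, so these matches only describe the letters of the windows.

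Per kilobase of exon, the junction genes *Pecam1* and *Cdh5* were the most abundant. In WTSH, *Pecam1* was at 25.5 ± 6.01 CPM per kb (SD, n = 3), *Cdh5* at 20.9 ± 5.83 and *Eng* at 12.4 ± 1.99, and the lowest was *Sox17* at 1.21 ± 0.277. *Ets1*, *Sox18*, *Erg* and *Esam* lay between 4.08 and 5.95 CPM per kb, *Vwf* at 3.05 and *Emcn* at 2.89. Over the 12 libraries, *Cdh5* was above *Eng*, *Eng* above *Sox18* and *Vwf* above *Sox17* in each. The other neighbours in the order exchanged places in some libraries, *Pecam1* being above *Cdh5* in 9 of 12.

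Does traction alter the vascular transcripts of a scar when *Tem1* is present? In WT mice 7 of the 10 genes rose with traction, where 9.15% of all genes tested were called and 5.61% were called higher. The median log2 fold change of the 10 genes was 1.26 (2.39-fold) and the range 0.67 to 1.60, against a median of −0.01 over all genes tested. In all 10 genes each WTTR library exceeded each WTSH library, which held for 17.7% of genes. In bulk tissue, more cells of a type and more RNA per cell cannot be told apart. The count of 7 was 0 without WTSH replicate 1 or WTSH replicate 2, where 0 of all genes were called. It was 2 without lacZSH replicate 3, where 169 of 19366 genes were called. It was 3 without WTTR replicate 1 (360 of 19388 genes) and 4 without WTTR replicate 3 (704 of 19430 genes). The median of the 10 genes stayed between 1.13 and 1.39. When the fit held only the 6 libraries compared, 0 of the 10 and 0 of all 17762 genes were called. The adjusted p of the 10 genes was then from 0.0747 to 0.139.

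**Figure D1:**
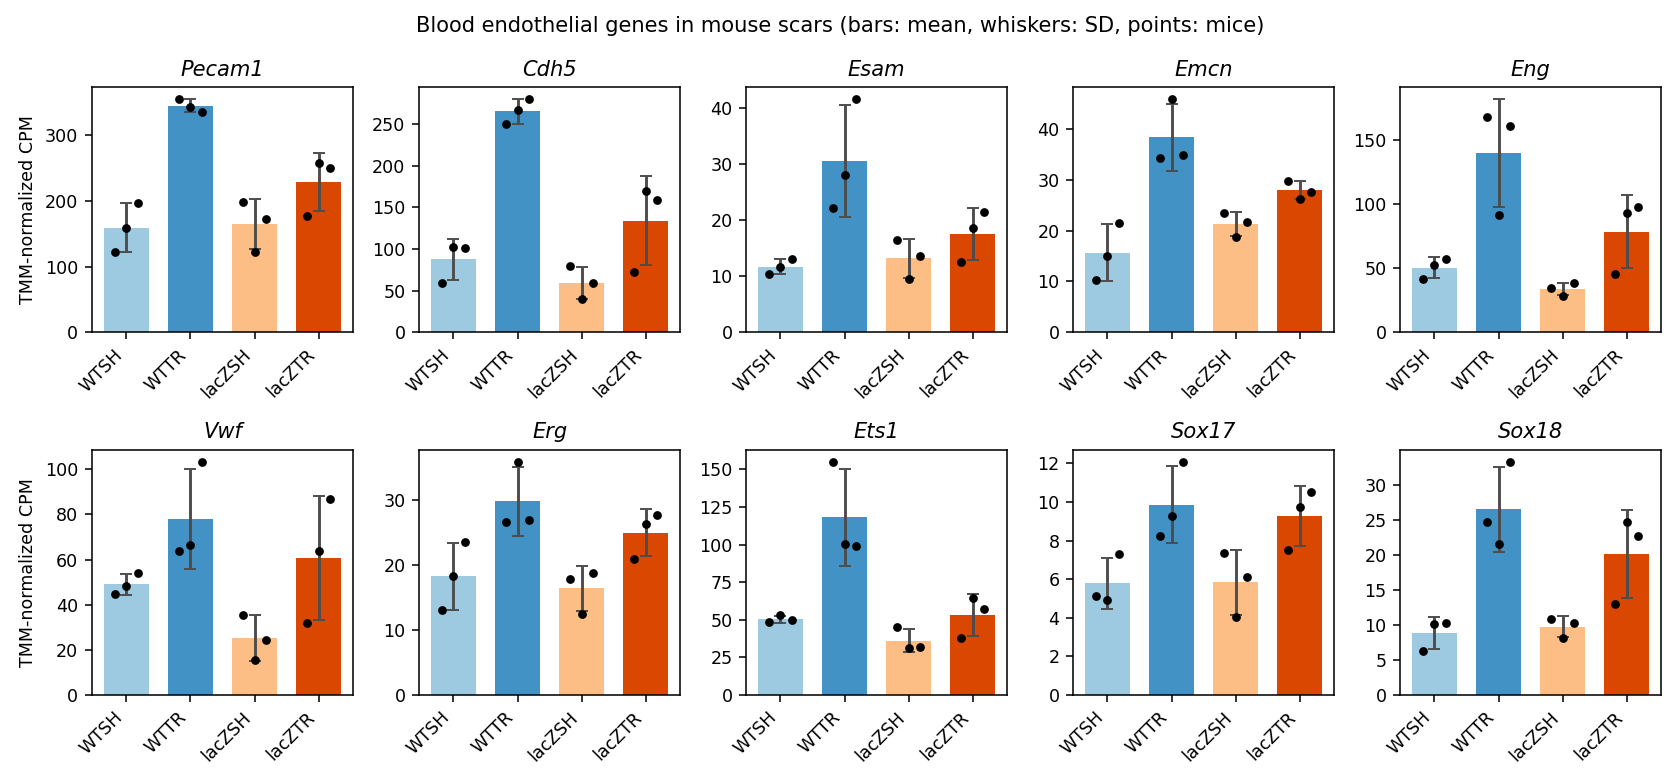
TMM-normalized CPM (vertical axes, from 0) of each gene in the 4 groups, with bars for the mean, whiskers for the SD and a point for each of 3 mice. In every panel the WTTR points lie above the WTSH points, and lacZTR replicate 1, the left point of that group, is the lowest of its group for 9 of 10 genes.

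*Pecam1*, *Cdh5* and *Esam* encode adhesion molecules of the junction between endothelial cells. *Cdh5*, VE-cadherin of the adherens junction, was at 59.5, 102 and 101 CPM in WTSH and at 249.9, 266 and 279 CPM in WTTR. Its log2 fold change of 1.60 (SE 0.34, adjusted p = 0.0317 by the quasi-likelihood test of edgeR) was the largest of the 10. *Pecam1*, which also occurs on platelets and leukocytes, was at 122, 159 and 196 CPM in WTSH and at 355, 343 and 335 CPM in WTTR. The WTTR values of both genes were close to each other, with an SD of 9.80 CPM for *Pecam1* and 14.8 CPM for *Cdh5*. *Pecam1* rose by a log2 fold change of 1.11 (SE 0.23, adjusted p = 0.0301). *Esam* spread more widely, from 22.1 to 28.0 and 41.6 CPM in WTTR against 10.4, 11.6 and 13.0 CPM in WTSH, and rose by 1.39 (SE 0.28, adjusted p = 0.0300).

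In lacZ mice the same junction genes overlapped between sham and traction. *Pecam1* was at 198, 123 and 172 CPM in lacZSH and at 177, 257 and 249.7 CPM in lacZTR. *Cdh5* was at 79.2, 39.6 and 58.6 CPM in lacZSH and at 72.7, 170.0 and 159 CPM in lacZTR. *Esam* was at 16.5, 9.59 and 13.6 CPM in lacZSH and at 12.5, 18.6 and 21.5 CPM in lacZTR. For each of the 3 genes lacZTR replicate 1 fell within the sham values, and the other lacZTR libraries were above them. The log2 fold changes were 0.47 for *Pecam1* (SE 0.23, adjusted p = 0.622), 1.18 for *Cdh5* (SE 0.34, adjusted p = 0.598) and 0.40 for *Esam* (SE 0.28, adjusted p = 0.692), none of which passed the threshold.

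*Emcn* encodes endomucin, a sialoglycoprotein of capillary and venous endothelium, and *Eng* encodes endoglin, an endothelial co-receptor for ligands of the TGF-β and BMP family. *Eng* was at 41.4, 52.8 and 56.9 CPM in WTSH and at 167, 91.6 and 160.4 CPM in WTTR, and rose by a log2 fold change of 1.47 (SE 0.30, adjusted p = 0.0303). In lacZ mice it was at 34.2, 28.5 and 38.2 CPM with sham and at 45.3, 92.7 and 97.3 CPM with traction. The lacZ groups did not overlap, and the log2 fold change of 1.22 (SE 0.30) had the smallest unadjusted p of the 10 genes in that genotype, 0.00193, with an adjusted p of 0.598. *Emcn* was at 10.4, 15.1 and 21.5 CPM in WTSH and at 34.2, 45.8 and 34.8 CPM in WTTR, a rise of 1.29 (SE 0.23, adjusted p = 0.0252), and at 23.5, 18.7 and 21.6 CPM in lacZSH and 29.8, 26.3 and 27.6 CPM in lacZTR, with a log2 fold change of 0.39 (SE 0.23, adjusted p = 0.655). The WT groups did not overlap and neither did the lacZ groups, and lacZTR replicate 1 was here the highest of its 3 libraries.

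*Vwf*, the adhesive glycoprotein that endothelial cells store in Weibel-Palade bodies, was the member with the smallest change in WT mice and the largest in lacZ mice. It was at 44.9, 48.2 and 53.8 CPM in WTSH and at 63.8, 66.6 and 103 CPM in WTTR. In lacZ mice it was at 35.6, 15.4 and 24.5 CPM with sham and at 32.0, 63.7 and 86.7 CPM with traction. The log2 fold changes were 0.67 (SE 0.37, adjusted p = 0.233) and 1.27 (SE 0.37, adjusted p = 0.598). Neither passed the threshold, and the lacZTR values overlapped those of lacZSH.

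Among the ETS factors, *Ets1* was steady in WTSH at 48.3, 53.0 and 49.9 CPM and lay at 155, 100.4 and 98.8 CPM in WTTR. It rose by a log2 fold change of 1.23 (SE 0.24, adjusted p = 0.0278). ETS1 is not restricted to endothelium, as lymphocytes and fibroblasts also express it. In WTTR replicate 1, where *Ets1* was highest, the summed level of 7 T cell markers was 123 CPM. It was 30.8 and 24.1 CPM in WTTR replicates 2 and 3, and 28.5 to 59.2 CPM in the other groups. The part of T cells in the *Ets1* values was not tested. *Erg*, an ETS factor more specific to endothelium, was at 13.1, 18.2 and 23.5 CPM in WTSH and at 26.6, 35.9 and 26.9 CPM in WTTR. Its log2 fold change of 0.71 (SE 0.24) did not pass the threshold after adjustment (adjusted p = 0.0763). In lacZ mice *Ets1* was at 45.1, 31.4 and 31.9 CPM with sham and at 37.7, 64.5 and 57.4 CPM with traction, with overlap, and *Erg* at 17.9, 12.4 and 18.8 CPM and at 20.9, 26.4 and 27.7 CPM, without overlap. Their log2 fold changes there were 0.56 (SE 0.24, adjusted p = 0.601) and 0.61 (SE 0.24, adjusted p = 0.598).

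*Sox17* and *Sox18* encode SoxF factors, *Sox17* being known for arterial and *Sox18* for vascular and lymphatic development. *Sox18* was at 6.25, 10.1 and 10.3 CPM in WTSH and at 24.6, 21.5 and 33.3 CPM in WTTR, a rise of 1.57 on the log2 scale (SE 0.29, adjusted p = 0.0252). *Sox17*, the member with the fewest counts, was at 5.12, 4.95 and 7.32 CPM in WTSH and at 8.23, 9.25 and 12.1 CPM in WTTR, with a log2 fold change of 0.77 (SE 0.27, adjusted p = 0.0840). In lacZ mice both genes were without overlap between sham and traction. *Sox18* was at 10.9, 8.11 and 10.3 CPM and at 13.0, 24.7 and 22.7 CPM, and *Sox17* at 7.35, 4.03 and 6.12 CPM and at 7.52, 9.72 and 10.5 CPM. The log2 fold changes were 1.04 (SE 0.28, adjusted p = 0.598) for *Sox18* and 0.67 (SE 0.27, adjusted p = 0.598) for *Sox17*, and lacZTR replicate 1 was the lowest of its group for both.

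**Figure D2:**
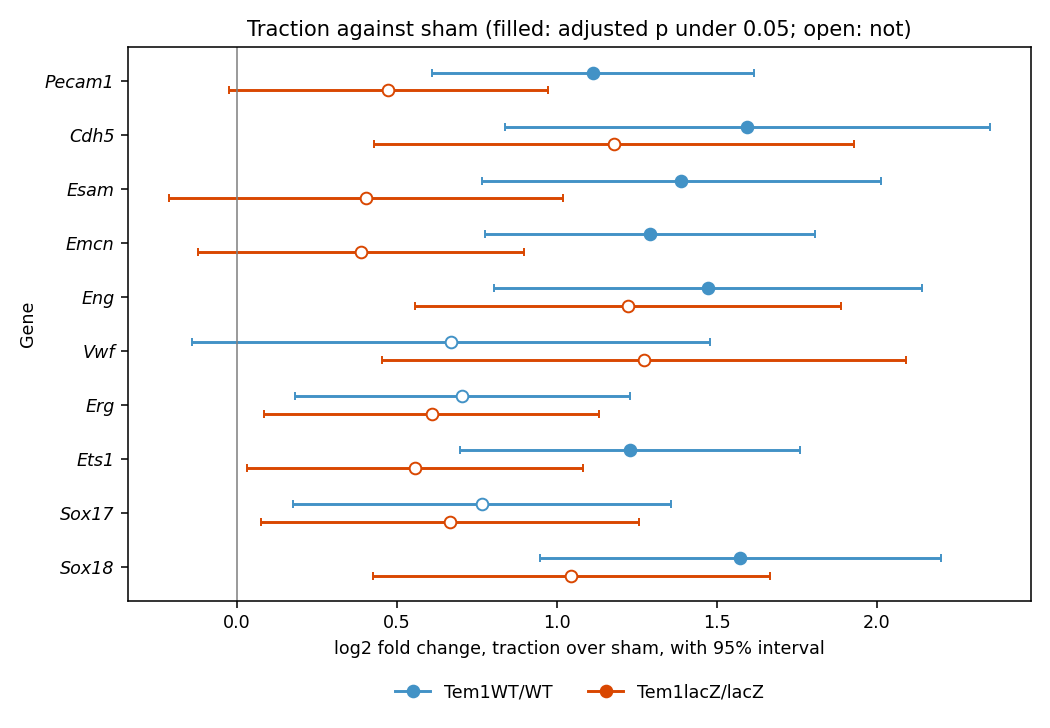
Log2 fold change of traction over sham (horizontal axis) for each gene, with 95% intervals, in WT (blue) and lacZ mice (orange), filled where the adjusted p is under 0.05. All 20 points lie above 0, 7 blue points are filled, and the median is 1.26 in WT and 0.64 in lacZ mice.

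Is the response also seen without *Tem1*? Among lacZ mice 0 of the 10 genes passed the threshold with edgeR's quasi-likelihood test, as did 0 of all 18853 genes, so percent called was 0. All 10 log2 fold changes were above 0, as were 48.5% of all genes, with a median of 0.64 and a range of 0.39 to 1.27, against −0.01 over all genes. At an unadjusted p under 0.05, 7 of the 10 genes were higher with traction, where 5.66% of all genes were, the exceptions being *Pecam1*, *Emcn* and *Esam*. In 5 genes (*Erg*, *Sox17*, *Sox18*, *Emcn* and *Eng*) the libraries did not overlap, which held for 6.77% of genes. DESeq2 also called 0 of the 10, and 23 of all 18853 genes. With limma-voom and sample weights 5 of the 10 were called, and 377 of all genes. Without lacZTR replicate 1 the count was 1, where 73 of 19403 genes were called. Without both libraries numbered 1 of the traction groups (chosen after seeing the data), it was 5 in lacZ and 7 in WT mice. In that fit 660 and 1563 of 19282 genes were called.

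Averaged over both genotypes, all 10 genes rose with traction, with adjusted p from 0.0203 to 0.0446, where 9.73% of genes were called and 6.5% were called higher. This comparison uses the same libraries as those above. The log2 fold changes were 1.39 for *Cdh5* (SE 0.24), 1.35 for *Eng* (SE 0.21), 1.31 for *Sox18* (SE 0.20) and 0.97 for *Vwf* (SE 0.26). The other 6 ranged from 0.66 for *Erg* to 0.90 for *Esam*. In *Erg*, *Sox17*, *Sox18*, *Emcn* and *Eng* every traction library was above every sham library of the same genotype, in both genotypes, which held for 3.07% of genes. The count was 0 without lacZSH replicate 2, lacZTR replicate 2 or WTSH replicate 1, where 0, 17 and 15 of all genes were called. It was 2 without lacZTR replicate 3 (102 of 19405 genes). It was 3 without lacZSH replicate 3 (357 of 19366 genes) or WTSH replicate 2 (185 of 19411 genes). The median of the 10 genes lay between 0.83 and 1.01 with a library left out.

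**Figure D3:**
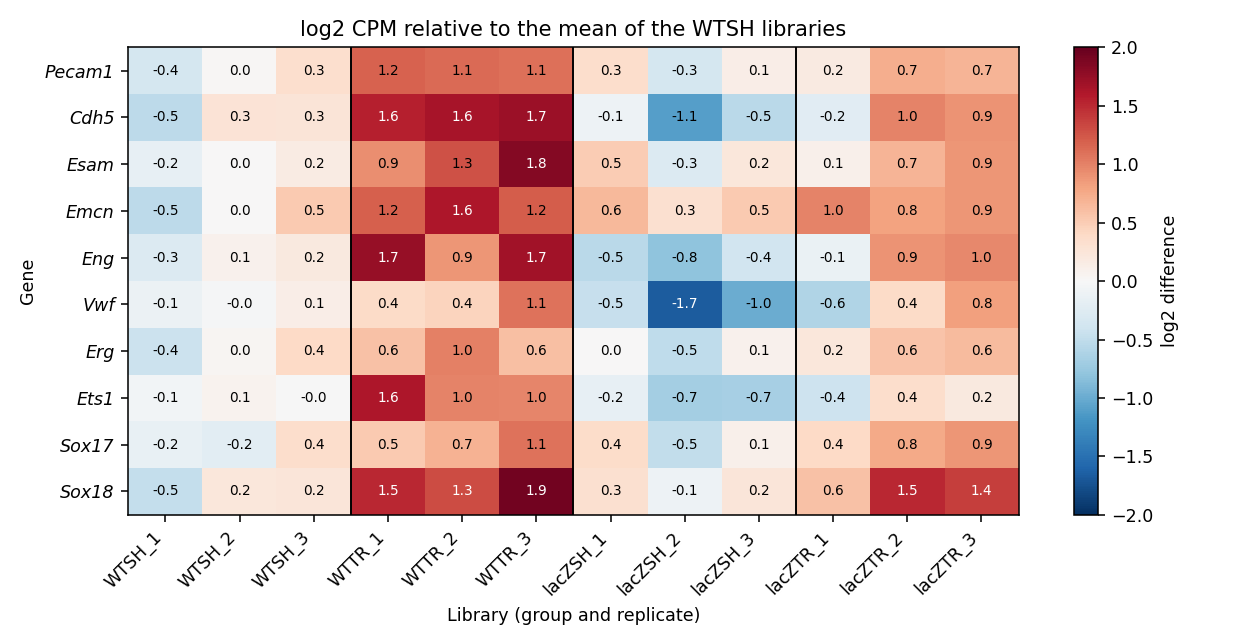
Log2 CPM of each gene (vertical axis) in each of 12 libraries (horizontal axis), relative to the mean of the 3 WTSH libraries, with red for higher and blue for lower. All cells of the WTTR libraries are above 0, from 0.39 to 1.94, lacZTR replicates 2 and 3 are above 0 for all 10 genes, and lacZSH replicate 2 is the lowest of its group throughout.

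The genotypes were next compared within each treatment. In the sham groups 0 of the 10 genes differed between lacZ and WT mice by edgeR's quasi-likelihood test, where 0.0106% of genes were called, and 1 gene, *Vwf*, was lower at an unadjusted p under 0.05, where 6.62% of genes were. DESeq2 and limma-voom also called 0 of these genes, and 27 and 1 of all genes. The log2 fold change of *Vwf* was −0.96 (SE 0.37, unadjusted p = 0.0249, adjusted p = 0.409), with no overlap between groups. *Ets1* and *Eng* also lay lower without overlap, at −0.48 (SE 0.24, adjusted p = 0.449) and −0.58 (SE 0.30, adjusted p = 0.460), and 13.8% of all genes were lower in this way. *Emcn* had the highest value, 0.44 (SE 0.23, adjusted p = 0.462). The 95% interval was −0.45 to 0.54 for *Pecam1* and −0.58 to 0.60 for *Sox17*, so a difference of up to about those sizes in either direction was not detectable.

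With traction, all 10 genes had a log2 fold change below 0 in lacZ against WT mice, as had 49% of all genes. The median was −0.53, against 0.01 over all genes. By edgeR's quasi-likelihood test 0 of the 10 passed the threshold, where 0.106% of genes were called, and 5 were lower at an unadjusted p under 0.05, where 15.1% of genes were. These 5 were *Ets1* (log2 fold change −1.15, SE 0.24, adjusted p = 0.0834), *Cdh5* (−0.99, SE 0.34, adjusted p = 0.119), *Eng* (−0.83, SE 0.30, adjusted p = 0.127), *Esam* (−0.80, SE 0.28, adjusted p = 0.122) and *Pecam1* (−0.59, SE 0.23, adjusted p = 0.141). *Pecam1*, *Cdh5*, *Ets1*, *Emcn* and *Esam* did not overlap between the groups, which held for 13.7% of genes in this direction. *Vwf*, *Erg*, *Sox17* and *Sox18* lay between −0.40 and −0.09 with overlap. The count was 2 with DESeq2, where 2309 of 18853 genes were called, and 0 with limma-voom, where 16 were. Without WTTR replicate 2 it was 1, where 1421 of 19400 genes were called. The counts of 2 and 1 are near the shares over all genes in those fits. Without lacZTR replicate 1, 1 gene and not 5 had an unadjusted p under 0.05 and the median was −0.44, and without the libraries numbered 1 of both traction groups 2 genes had, with a median of −0.36.

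**Figure D4:**
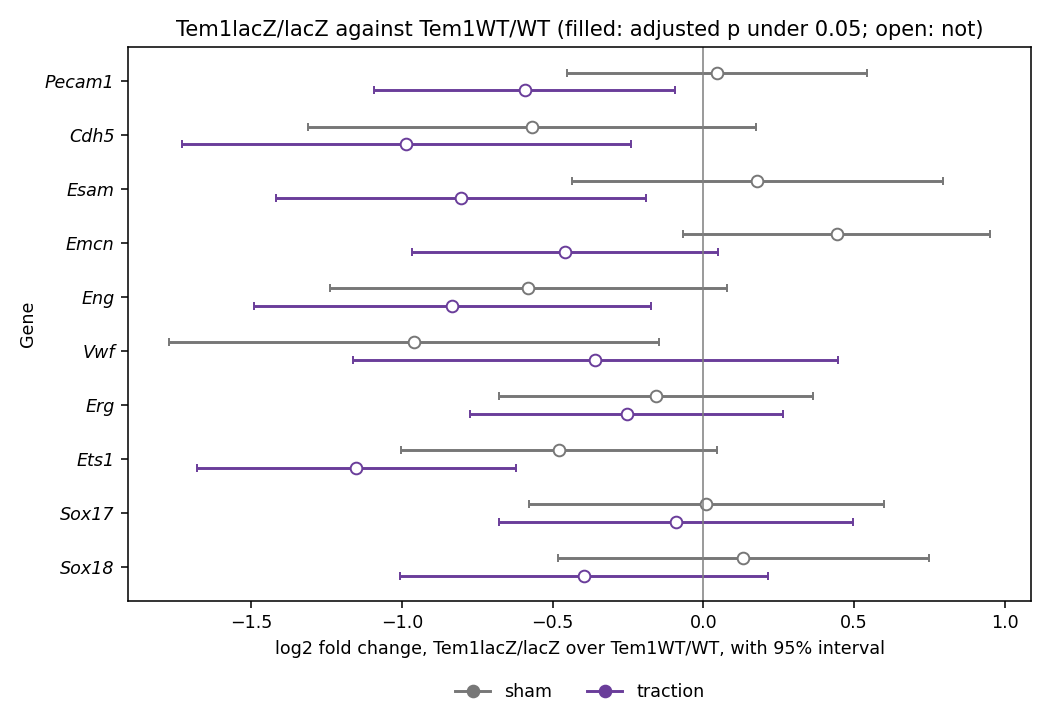
Log2 fold change of lacZ over WT mice (horizontal axis) for each gene, with 95% intervals, in the sham (grey) and traction groups (purple); open points have an adjusted p of 0.05 or more. All 20 points are open, the purple points all lie below 0 and the grey points lie on both sides of it.

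Whether traction acted differently in the genotypes was tested by the interaction, in which a negative value is a smaller log2 change with traction in lacZ mice. Of the 10 genes 0 passed the threshold, as did 0 of all genes in edgeR, and 2 were negative at an unadjusted p under 0.05, where 4.46% of genes were. DESeq2 and limma-voom also called 0 of the 10, and 69 and 0 of all genes. The interaction was −0.98 for *Esam* (SE 0.40, unadjusted p = 0.0298, adjusted p = 0.548) and −0.90 for *Emcn* (SE 0.33, unadjusted p = 0.0186, adjusted p = 0.548). The sign was negative for 9 of 10 genes, and for 50.2% of all genes, and the median was −0.47. *Vwf* was the exception at 0.60 (SE 0.52, adjusted p = 0.720), with an interval of −0.54 to 1.74. Thus, the rises found in WT mice were not shown to differ from the changes in lacZ mice for any of the 10 genes. For *Erg* and *Sox17* the interaction was −0.10 with intervals of −0.83 to 0.64 and −0.93 to 0.73, which include values as large as the change with traction itself.

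The 10 genes were then set against each other within each library. Each gene's log2 CPM correlated with the mean of the 9 others with r between 0.77 for *Emcn* and 0.98 for *Pecam1*, over 12 libraries that share groups and library effects. The 45 pairs had a median r of 0.85, the highest being 0.95 for *Pecam1* with *Cdh5* and the lowest 0.43 for *Vwf* with *Emcn*. Relative to the mean log2 level of the 9 others, *Cdh5* gained 0.51 and *Sox18* 0.45 with traction in WT mice, and *Vwf* fell by 0.60, *Erg* fell by 0.50 and *Sox17* fell by 0.46, with SDs within groups of 0.09 to 0.37. In lacZ mice *Vwf* gained 0.52 instead, with SDs of 0.30 and 0.40, *Eng* gained 0.43 and *Cdh5* 0.41. There *Emcn*, *Esam* and *Pecam1* lost ground, at −0.41, −0.40 and −0.31. These relative values were not tested.

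Some libraries were the lowest of their group for most of the 10 genes. Within the groups, WTSH replicate 1 was the lowest of its 3 libraries for 9 of 10 genes, lacZSH replicate 2 for 10 and lacZTR replicate 1 for 9. The summed level of the 10 genes was 361, 475 and 534 CPM in WTSH, 1107, 1008 and 1126 CPM in WTTR, 468, 291 and 396 CPM in lacZSH, and 448, 754 and 760 CPM in lacZTR. The spread of edgeR's model for the 10 genes, a biological coefficient of variation of 22.3% to 32.5%, lay around the median of 27.1% over all genes.

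Markers of other cell types also moved with the groups, and their part in the values above was not tested. All 7 neutrophil markers tested had a higher mean with traction in WT mice and 4 passed the threshold, where 5.61% of all genes were called higher. Of these 4, *S100a9*, *S100a8* and *Cxcr2* had the largest log2 fold changes, 5.63, 5.11 and 4.86. The summed level of the 7 markers was 106 to 126 CPM in WTSH, 358 to 8051 CPM in WTTR, 235 to 255 CPM in lacZSH and 295 to 592 CPM in lacZTR. The highest value was that of WTTR replicate 1, whose summed level of the 10 endothelial genes was between those of WTTR replicates 2 and 3. Gene by gene, that library was the highest of its group for 3 of the 10 and the lowest for 6. Of 7 fibroblast genes *Pdgfra* rose (log2 fold change 1.45, adjusted p = 0.0329), with sums of 26391 to 41869 CPM in WTSH, 43917 to 111200 CPM in WTTR, 17871 to 30746 CPM in lacZSH and 22677 to 49996 CPM in lacZTR. As for the endothelial genes, the lowest fibroblast sums of WTSH, lacZSH and lacZTR were in replicates 1, 2 and 1. In the traction group of lacZ mice, replicate 1 also had the highest keratinocyte sum, 40364 CPM, against 9147 to 19791 CPM in the 11 other libraries. The 6 skeletal muscle genes ranged from 1186 to 11942 CPM in WTSH and from 304 to 1891 CPM in WTTR in sum, the highest being WTSH replicate 1, and from 967 to 3054 CPM in the lacZ groups.

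Other genes of the endothelium were described next. Their lists were chosen with earlier results of these data known, so likeness to the 10 genes is not independent support. Of 20 further endothelial genes, 12 rose with traction in WT mice and 0 fell, where 5.61% of all genes rose, with a median log2 fold change of 1.05. Among the genes called, the largest changes were in *Rasip1*, a junctional regulator of lumen formation, at 1.68 (SE 0.33, adjusted p = 0.0281), *Ecscr*, an endothelial surface protein, at 1.56 (SE 0.23, adjusted p = 0.0213) and *Cd93*, an endothelial C-type lectin-like receptor, at 1.55 (SE 0.39, adjusted p = 0.0388). In lacZ mice the median of the 20 was 0.62, with 0 called and 9 higher at an unadjusted p under 0.05, where 5.66% of all genes were. With traction all 20 had a log2 fold change below 0 in lacZ against WT mice, where 49% of all genes had, with a median of −0.63 and 0 called, and 11 were lower at an unadjusted p under 0.05, where 15.1% of all genes were. Of 11 further endothelial transcription factors, 2 rose with traction in WT mice, *Bcl6b* (1.48, SE 0.26, adjusted p = 0.0252) and the ETS factor *Elk3* (1.39, SE 0.22, adjusted p = 0.0239), and the median was 0.70.

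By vessel type, 3 of 8 arterial genes rose in WT mice with traction, where 5.61% of all genes rose. They were the gap junction genes *Gja5* (1.90, SE 0.40, adjusted p = 0.0310) and *Gja4* (1.17, SE 0.26, adjusted p = 0.0329) and the Notch ligand *Dll4* (1.72, SE 0.28, adjusted p = 0.0242). Of 5 venous genes 2 rose, the apelin receptor *Aplnr* (1.80, SE 0.47, adjusted p = 0.0416) and *Ephb4* (0.84, SE 0.23, adjusted p = 0.0480). None of 5 capillary genes passed the threshold in edgeR, and 3 were higher at an unadjusted p under 0.05, where 16.7% of all genes were. *Rgcc*, the most abundant, was at 0.94 (SE 0.40, adjusted p = 0.134). Of 7 tip cell genes, which sprouting endothelium expresses, 5 rose. Among the genes called, the largest changes were in the chemokine receptor *Cxcr4* (2.35, SE 0.33, adjusted p = 0.0184), the apelin ligand *Apln* (2.18, SE 0.33, adjusted p = 0.0236) and *Pgf* (2.12, SE 0.45, adjusted p = 0.0310), while *Esm1*, named after its value was seen, had a larger value that missed the threshold (3.25, SE 0.92, adjusted p = 0.0502). The median of the list was 2.12, beside 1.26 for the 10 identity genes. Their medians with traction in lacZ mice were 0.31 for arterial, 0.97 for venous, −0.29 for capillary and 0.29 for tip cell genes, with 0 called in each. *Cxcr4*, which leukocytes also express, was the 1 gene of these lists called between the genotypes with traction, where 0.106% of all genes were. It was at −2.44 in lacZ mice (SE 0.33, adjusted p = 0.0257).

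Partners of *Cdh5* and *Eng* and the cells around the vessel were examined as well. Of 9 genes of adherens and tight junctions that epithelium shares, such as catenins, 1 rose with traction in WT mice, where 5.61% of all genes rose, *Jam3* (0.76, SE 0.19, adjusted p = 0.0361), and the median was 0.11. Of 8 genes downstream of or beside endoglin, the endothelial type I receptor *Acvrl1* rose (1.04, SE 0.29, adjusted p = 0.0485), and the median was 0.01. Of 9 pericyte genes, which mark the mural cells around small vessels, *Pdgfrb* rose (1.61, SE 0.28, adjusted p = 0.0252), with a median of 0.60. *Pdgfrb* is also expressed by fibroblasts. The summed pericyte level was 409 to 607 CPM in WTSH, 624 to 1066 CPM in WTTR, 362 to 526 CPM in lacZSH and 519 to 734 CPM in lacZTR. Counts of 1 gene in lists of 8 or 9 are near the share over all genes and say nothing of the lists. In lacZ mice the medians were 0.14, 0.32 and 0.34, with 0 called.

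**Figure D5:**
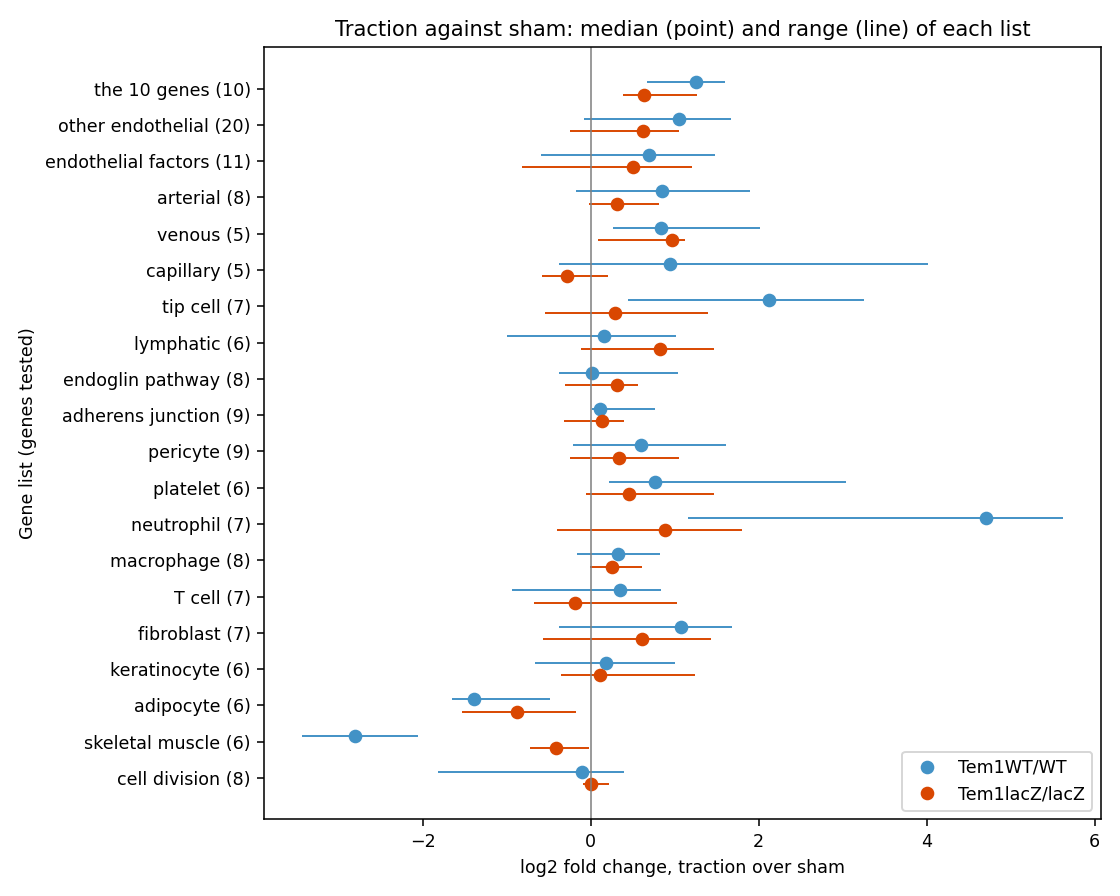
Median (points) and range (lines) of the log2 fold change of traction over sham (horizontal axis) over the tested genes of each list (vertical axis, number of genes in parentheses), in WT (blue) and lacZ mice (orange). The 10 identity genes have medians of 1.26 and 0.64 and ranges wholly above 0 in both genotypes, while tip cell genes have medians of 2.12 and 0.29.

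The genes whose log2 CPM over the 12 libraries was most like the mean standardized level of the 10 genes were *Man2a1* (Pearson r = 0.99), *Pcdhgc5* (0.98), *Nid2* (0.97), *Elk3* (0.97), *Notch4* (0.97), *Arap3* (0.97), *Adgrf5* (0.97) and *Fndc3b* (0.97). These 8 were picked as the highest of all genes tested, and the 12 libraries share groups, so the values only describe likeness. *Man2a1*, a Golgi mannosidase, had group means of 112 CPM in WTSH, 251 CPM in WTTR, 97.1 CPM in lacZSH and 156 CPM in lacZTR. *Nid2*, a basement membrane protein, had means of 31.2, 142, 21.2 and 61.4 CPM, and *Notch4*, an endothelial Notch receptor, of 6.92, 30.4, 6.15 and 13.0 CPM in the same order.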

How the data were processed

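Scar RNA of 12 mice was sequenced as stranded poly(A) libraries. The authors removed low-quality bases with fastp 0.20.0, aligned reads to GRCm38 with HISAT2 2.1.0 and deposited whole-number counts per gene from featureCounts 2.0.0, without normalization. The gene annotation, strand setting and handling of multi-mapped reads are not given in the sources used here. Library totals were 41536788 to 64644293 counts, and 1 column of counts per library was used as deposited.

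The software was edgeR 4.0.16, DESeq2 1.42.0 and limma 3.58.1 under R 4.3.3, and matplotlib 3.10.9 under Python 3.11.15. Low counts were removed by edgeR's filterByExpr on the groups. After TMM normalization, a robust quasi-likelihood model of the 4 groups (8 residual degrees of freedom) was fitted, and it was first tested on simulated data. Tests were two-sided, and p-values were adjusted by Benjamini-Hochberg over the 18853 genes tested, and a gene was called at an adjusted p under 0.05. The 6 comparisons were traction in each genotype, genotype in each treatment, the interaction and traction averaged over genotypes, and they share libraries. Correlations used log2 CPM with a prior count of 2. Same-numbered libraries came from different mice, and the p-values set differences between groups against the spread between the mice sampled.

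The 10 genes and the marker lists (other endothelial genes, endothelial factors, arterial, venous, capillary, tip cell, endoglin pathway, adherens junction, lymphatic, pericyte, platelet, neutrophil, macrophage, T cell, fibroblast, keratinocyte, adipocyte, skeletal muscle and cell division) were chosen with earlier results of these data known. The rule named all 10 genes in every comparison, *Cd248*, the called genes of each list up to the 3 with the largest change or otherwise the most abundant gene, and the 8 genes most like the 10. *Notch4*, *Nid2* and *Man2a1* were picked from those 8 with their values in view. As alternatives, the filter was set to 1 count in any library or to 10 in each, TMM was replaced by upper quartile or DESeq2 size factors, and the test by limma-voom with sample weights or the Wald test of DESeq2. The replicate number was also added as a block, the fit was restricted to the groups compared, and every library was left out in turn. Positions and exon lengths came from GENCODE vM21, and Entrez identifiers and promoters from RefSeq.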

Additional observations from a re-analysis of the deposited data

How the results depend on the processing

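The number of the 10 genes called stayed within 1.5 times the value given under all alternatives but these. With traction in WT mice it was 7, 0 with only the libraries of the groups compared, and 0 to 7 with a library left out. Of all genes, 1725, 0 and 0 to 2861 were called in these fits. With traction in lacZ mice it was 0, 5 with limma-voom, 5 without both libraries numbered 1 of the traction groups (chosen after seeing the data), and 0 to 1 with a library left out. Of all genes, 0, 377, 660 and 0 to 73 were called there. Between the genotypes with traction it was 0, 2 with DESeq2's Wald test and 0 to 1 with a library left out. Of all genes, 20, 2309 and 3 to 1421 were called there. Averaged over genotypes it was 10 and 0 to 10 with a library left out. Of all genes, 1835 and 0 to 3422 were called there. The cause was not tested. Over all genes, DESeq2's Wald test called 4047 with traction in WT mice, 23 in lacZ mice, 2309 between the genotypes with traction and 69 in the interaction, against 1725, 0, 20 and 0. Upper quartile normalization moved the median of all genes with traction in WT mice from −0.01 to −0.12 and the split of calls from 1057 higher and 668 lower to 734 and 939, and the median of the 10 genes was then 1.15.

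With the replicate number as a block, 7 of the 10 genes were called with traction in WT mice, 0 in lacZ mice, 0 in the 2 genotype comparisons, 0 in the interaction and 9 averaged over genotypes. In that order, 1467, 0, 2 (sham), 15 (traction), 0 and 1492 of all 18853 genes were called. Same-numbered libraries had correlations of their deviations between −0.32 and 0.25, over 0.1 in 8 of 18 pairs, and 8 of 12 libraries correlated best with their own number. The cause of this likeness was not tested. As same-numbered libraries came from different mice, the numbers were not taken as pairing in the main fit.

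The direction of a log2 fold change turned only where the main value was smaller in size than its SE. The largest such value was −0.25 (SE 0.42), for *Eng* in the interaction. For *Sox17* between the genotypes it was −0.019 with all genes with at least 1 count and −0.0059 without both libraries numbered 1 in the sham groups, and 0.030 with limma-voom and 0.036 with upper quartile normalization in the traction groups. In the interaction *Sox17* was 0.016 and *Eng* 0.15 with limma-voom, and without both libraries numbered 1 *Eng* was 0.24 and *Erg* 0.0013. With a library left out, the sham groups gave −0.22 to 0.22 for *Sox17*, −0.14 to 0.23 for *Pecam1*, −0.035 to 0.35 for *Esam*, −0.067 to 0.26 for *Sox18* and −0.35 to 0.067 for *Erg*, the traction groups −0.20 to 0.095 for *Sox17*, and the interaction −0.32 to 0.099 for *Erg*, −0.31 to 0.15 for *Sox17* and −0.49 to 0.078 for *Eng*. No log2 fold change of traction in either genotype changed direction for any of the 10 genes under these alternatives. The 10 genes had at least 170 counts in every library, and each group held 3 mice.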

Other observations

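Lymphatic vessels share some genes with blood vessels but carry their own markers. Of 6 lymphatic genes tested, 0 were called with traction in WT mice by edgeR, with a median log2 fold change of 0.16. At an unadjusted p under 0.05, 2 were higher and 1 lower, where 16.7% and 14.7% of all genes were. *Pdpn*, the most abundant and also a fibroblast and keratinocyte gene, was at 1.02 (SE 0.30, adjusted p = 0.0557). In lacZ mice 0 were called and the median was 0.83. There 3 were higher at an unadjusted p under 0.05, where 5.66% of all genes were. *Flt4*, the receptor of lymphatic growth factors, was the 1 lymphatic gene called when traction was averaged over genotypes (1.15, SE 0.23, adjusted p = 0.0253).

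*Vwf* is also stored by platelets. Of 6 platelet genes tested, *Ppbp* rose with traction in WT mice (2.81, SE 0.72, adjusted p = 0.0396), where 5.61% of all genes rose. The median of the 6 was 0.77, with 0.45 and 0 called in lacZ mice. With traction in WT mice, edgeR called 0 genes in the lists of macrophages (median 0.32, 1 at an unadjusted p under 0.05), T cells (0.35, 0), keratinocytes (0.19, 1), adipocytes (−1.39, 0), skeletal muscle (−2.80, 6) and cell division (−0.10, 2). At an unadjusted p under 0.05, 31.4% of all genes passed with traction in WT mice, in either direction. The medians of these lists in lacZ mice were 0.26, −0.19, 0.11, −0.87, −0.41 and 0.01, with 0 called.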
